A study of Mus musculus with 26 samples.

Results

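The mitochondrial genome was represented by 37 of the 45706 gene rows of the count table, chosen because their symbols start with mt-. They were the 2 ribosomal RNAs mt-Rnr1 and mt-Rnr2, 13 protein genes and 22 transfer RNAs. All 37 matched a gene of the GENCODE vM21 annotation (GRCm38, chromosome M), and 14 of them, both ribosomal RNAs and 12 protein genes, passed the low-count filter and were tested. The 22 transfer RNAs had no counts, and mt-Nd3 was too low to test.

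The mitochondrial genome is a small circular DNA present in many copies per cell. Both of its strands are transcribed into long precursors, which are cut apart largely at the transfer RNAs that lie between the other genes. Its protein genes encode subunits of respiratory complexes I, III and IV and of ATP synthase, whose remaining subunits come from nuclear genes, and its ribosomal RNAs form the core of the mitochondrial ribosome. The share of a library taken by these transcripts is commonly read as a sign of mitochondrial content and of the state of the cells, so ribosomal RNA and protein genes are kept apart here.

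The libraries came from mammary glands of mice of strain B6.129S1, either wild type or null for Snai2 (labelled Snai2-LacZ/LacZ), the gene of the transcription factor Slug, at 3 or 12 months of age. Glands had been minced and kept frozen before dissociation, and each pool of cells, from 3 mice, was divided by FACS on EpCAM and CD49f. The design asks how cell populations differ with age and with loss of Snai2. Wild-type pools F79 and F81 (3 months) and A1 and A2 (12 months) each gave a luminal library from the cells lining the ducts, a basal library from the myoepithelial layer and a stromal library from the surrounding connective tissue. Null pools F82 and F84 (3 months) gave luminal, luminal-basal and stromal libraries. Null pools A5 and A6 (12 months) gave luminal, luminal-basal, basal and stromal libraries. Each of the 13 groups thus held 2 libraries, 26 in all, and because age and genotype were carried by different pools, an effect of either cannot be told apart from a difference between sessions of sorting or sequencing.

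Library totals ran from 2951035 to 16649904 counts (median 5482746.5). Snai2 had 4 to 597 counts in the 12 wild-type libraries and 0 or 1 in 12 of the 14 null libraries, with 4 in F82 stroma and 44 in the F82 luminal-basal library. Levels of marker lists are given in CPM, read counts scaled to a common total of nuclear counts and summed over the list. The markers of 2 libraries of pool A5 went against their labels. The library labelled stromal held 18950 CPM of basal markers and 355.7 CPM of fibroblast markers, where the stroma of A6 held 1401 and 19030. The library labelled luminal-basal held 1224 CPM of basal and 19370 CPM of fibroblast markers. Both null 12-month basal libraries carried few basal markers (980.1 and 1301 CPM, against 6572 to 20960 in wild-type basal cells) and more endothelial, pericyte and adipocyte ones. Results resting on the 2 doubted A5 libraries are given with and without them.

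Where a nuclear copy of mitochondrial DNA is near-identical, a short read cannot be placed in one of them alone, so the sequences are shown before the levels. Of the 13 protein genes, 5 were covered over at least 90% of their length by a nuclear pseudogene of at least 99% identity, all 5 in a block of 7 pseudogene rows on the minus strand of chromosome 1 (chr1:24611535-24616197, GRCm38, 4663 bases). These were mt-Co2, mt-Atp6, mt-Co3, mt-Nd3 and mt-Nd4l. The first 60 bases of mt-Co2 (chrM:7013-7072, plus strand) and of its copy Gm28661 (chr1:24615506-24615565, minus strand) were identical, and those of mt-Nd3 (chrM:9459-9518, plus strand) and Gm28438 (chr1:24613060-24613119, minus strand) differed at the base in capitals, the change T3C with positions counted from 1 at the first base of the gene.
mt-Co2: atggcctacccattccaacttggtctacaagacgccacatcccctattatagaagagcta
Gm28661: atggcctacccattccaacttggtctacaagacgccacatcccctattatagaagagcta
mt-Nd3: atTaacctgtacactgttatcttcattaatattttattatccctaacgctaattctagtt
Gm28438: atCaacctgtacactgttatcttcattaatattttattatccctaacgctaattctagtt
All sequences were taken from GENCODE vM21 transcripts and are written from 5′ to 3′ on the strand of the gene.

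A further 2 protein genes were covered in part, mt-Co1 over 483 of 1545 bases by Gm29216 and mt-Nd4 over 876 of 1378 bases by Gm28439. In mt-Co1 (chrM:6390-6449, plus strand) and Gm29216 (chr1:24616129-24616188, minus strand) the capital letter marks A1066T, again counted from the first base of mt-Co1.
mt-Co1: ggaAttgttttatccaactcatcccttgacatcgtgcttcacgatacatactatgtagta
Gm29216: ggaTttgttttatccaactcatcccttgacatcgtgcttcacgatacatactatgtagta
The other 6 genes (mt-Nd1, mt-Nd2, mt-Atp8, mt-Nd5, mt-Nd6 and mt-Cytb) had no such copy among the annotated transcripts, the only sequences searched, so an unannotated copy would have been missed. For mt-Atp8 the match to Gm10925, the copy of mt-Atp6, was identical but covered only its last 43 of 204 bases. The stretch of mt-Cytb at chrM:14445-14504 (plus strand) and its match in Gm11410 (chr4:80004289-80004348, plus strand) differed at 7 of 60 bases, shown in capitals.
mt-Cytb: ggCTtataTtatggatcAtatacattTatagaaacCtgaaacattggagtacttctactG
Gm11410: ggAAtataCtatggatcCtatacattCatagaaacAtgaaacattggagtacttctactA

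The 5 covered genes stood far below the others in every library. Together they held 0.142% to 0.33% of the counts of the 13 protein genes (median 0.254%), against 21.4% to 36% for the 2 partly covered genes and 63.7% to 78.3% for the 6 for which no near-identical copy was found. On the scale of CPM per kilobase of gene length, with the mitochondrial ribosomal RNAs left out of the total, their medians over 26 libraries were 1.49 for mt-Nd3, 12.1 for mt-Co3, 14.4 for mt-Co2, 19.2 for mt-Nd4l and 64.4 for mt-Atp6. The highest median was that of mt-Atp8 (12800), followed by mt-Cytb (5218), mt-Co1 (4134), mt-Nd1 (3635), mt-Nd2 (2926), mt-Nd5 (2116), mt-Nd4 (1595) and mt-Nd6 (1366). The lowest of those, mt-Nd6, is the one protein gene on the minus strand.

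**Figure D1:**
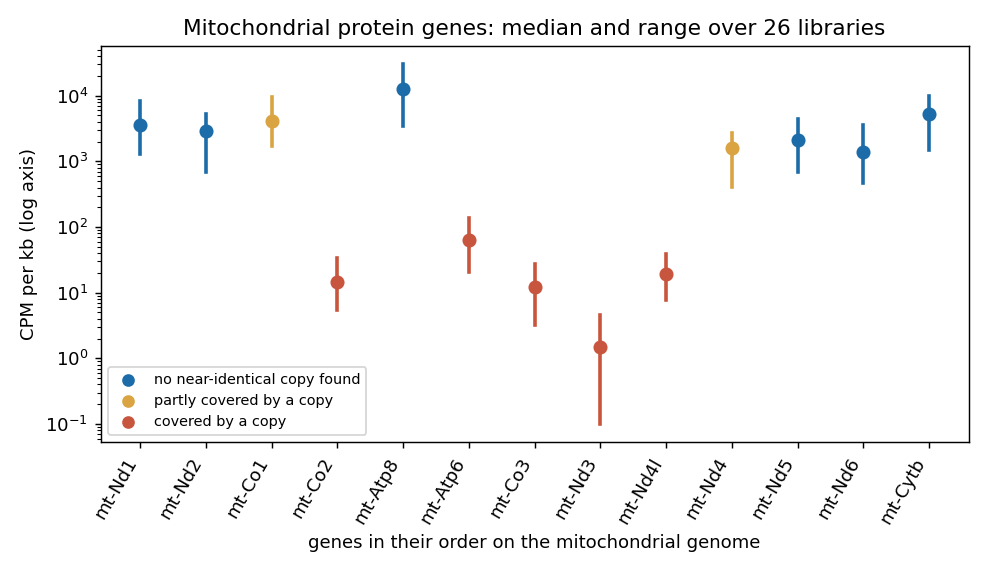
Levels of the 13 protein genes in CPM per kilobase of gene length (log axis) in genome order, points the median and lines the range over 26 libraries (a lowest value of 0, in mt-Nd3, is drawn at 0.1), coloured by whether a near-identical annotated nuclear copy covers the gene. The 5 covered genes have medians from 1.49 to 64.4 and the others from 1366 to 12800.

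The covered genes lie close together on the genome, with mt-Atp8 in their midst. mt-Atp8 and mt-Atp6 are neighbours whose reading frames share 43 bases, and their medians were 12800 and 64.4 CPM per kilobase. The end of mt-Atp8 (chrM:7909-7969, plus strand) is printed with the bases it shares with mt-Atp6 in capitals.
mt-Atp8: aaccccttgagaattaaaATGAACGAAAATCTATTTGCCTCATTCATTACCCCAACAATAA
On chromosome 1 the copies of mt-Co2 and mt-Atp6 lie 233 bases apart, the same distance as the matching positions on chromosome M, and no pseudogene is annotated in that gap, where mt-Atp8 would fall. The sequence of the gap itself was not examined, so a copy of mt-Atp8 there cannot be told from these files. Dividing all counts of a gene by its length outside the copy gave medians of 6014 for mt-Co1 (1062 bases) and 4380 for mt-Nd4 (502 bases). That scaling supposes that no counted read came from the copied part, which was not tested. The pseudogene rows of the block summed to 2 to 73 counts per library (341 over all libraries) and the 5 covered genes to 87 to 1184. Matches outside the block were less alike, and some held counts. Gm13341 on chromosome 2 matches all of mt-Co2 at 95.91% identity. It held 807 counts over all libraries, 1 to 237 per library, where mt-Co2 held 1264. Gm13340 on chromosome 2 matches all of mt-Co1 at 97.61% and held 267. Gm11407 on chromosome 4 matches 57.9% of mt-Nd5 at 92.34% and held 1000. Gm11410 and Gm11408, matches to mt-Cytb and mt-Nd6, held 0. How reads with more than one best place were counted is not given in the sources used here, so the levels of the 5 covered genes, and in part those of mt-Co1 and mt-Nd4, are uncertain. The other overlaps, 7 bases between mt-Nd4l and mt-Nd4 and 14 between mt-Nd5 and mt-Nd6, are short, but the latter pair lies on opposite strands and the strand setting of the counting is not given either.

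Transfer RNAs were listed at 0 throughout. All 22 genes, 14 on the plus and 8 on the minus strand and 59 to 75 bases long, had 0 counts in all 26 libraries. On counting error alone, a count of 0 allows up to 3 counts, a share of 1.8e-05% of the total in the deepest library and 0.000102% in the shallowest. Such a ceiling holds only if reads from these genes could be counted at all, which was not tested. The leucine transfer RNA mt-Tl1 (chrM:2676-2750, plus strand), which lies between mt-Rnr2 and mt-Nd1 on the precursor, is printed whole to show how short these genes are.
mt-Tl1: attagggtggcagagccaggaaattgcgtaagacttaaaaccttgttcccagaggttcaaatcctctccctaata

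The 2 ribosomal RNAs held most of the mitochondrial counts in every library. Their summed share of the library total ran from 15.63% in A5 basal cells (exact 95% binomial interval 15.6% to 15.66%) to 47.96% in A2 luminal cells (47.93% to 48%), with a median of 24.9%. Intervals this narrow cover counting error only, since amplified reads are not independent molecules. The large-subunit RNA mt-Rnr2 exceeded the small-subunit RNA mt-Rnr1 in every library, with 1.54 to 2.89 times its counts. The medians were 89210 CPM per kilobase for mt-Rnr1 and 102800 for mt-Rnr2, here with the whole library as the total. Summed ribosomal RNA counts were 7.24 (F79 basal) to 21.7 times (F81 stroma) those of the 13 protein genes.

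Ribosomal RNA shares were lower in stroma than in luminal cells in wild-type pools. Wild-type luminal libraries held 29.8% (F79), 31.8% (F81), 34.6% (A1) and 48% (A2). Stromal libraries of the same pools held 18% (F79), 17.2% (F81), 18.4% (A1) and 27.8% (A2). No wild-type stromal value reached the lowest wild-type luminal one. In bulk libraries, fewer mitochondria-rich cells and less mitochondrial RNA per cell cannot be told apart. Basal libraries lay between or overlapped both, at 23.8% (F79), 30.6% (F81), 23.7% (A1) and 38.4% (A2).

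In null pools the populations overlapped more. Null luminal libraries held 22.2% (F82), 24.4% (F84), 25.2% (A5) and 29.9% (A6), and null luminal-basal libraries 30.7% (F82), 27.9% (F84), 28% (A5, against its label) and 22.8% (A6). Null stroma held 19.5% (F82), 16.4% (F84), 33.9% (A5, against its label) and 24.6% (A6). The null 12-month basal libraries, which lacked basal markers, were the lowest library of their pools with 15.6% (A5) and 20.6% (A6).

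Over the 8 pools the stromal share averaged 22% ± 6.23 (SD, n = 8) and the luminal share 30.8% ± 8.08 (n = 8). Paired by pool the difference was -8.78 percentage points, with stroma lower in 7 of 8 pools (two-sided exact permutation test by sign flips, p = 0.0469). Without the doubted A5 library it was -11.3 points, lower in 7 of 7 (exact permutation p = 0.0156, the smallest possible). Basal libraries averaged 7.78 points below the luminal library of the same pool, lower in 6 of 6 (exact permutation p = 0.0312, the smallest that 6 pools allow), the 2 null pools with few basal markers included. The 24 exact tests of library measures, 3 measures in 8 comparisons, formed 1 family, and none passed a Benjamini-Hochberg adjusted p of 0.05. The adjusted permutation values were 0.229, 0.188 and 0.229 for these 3 results.

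**Figure D2:**
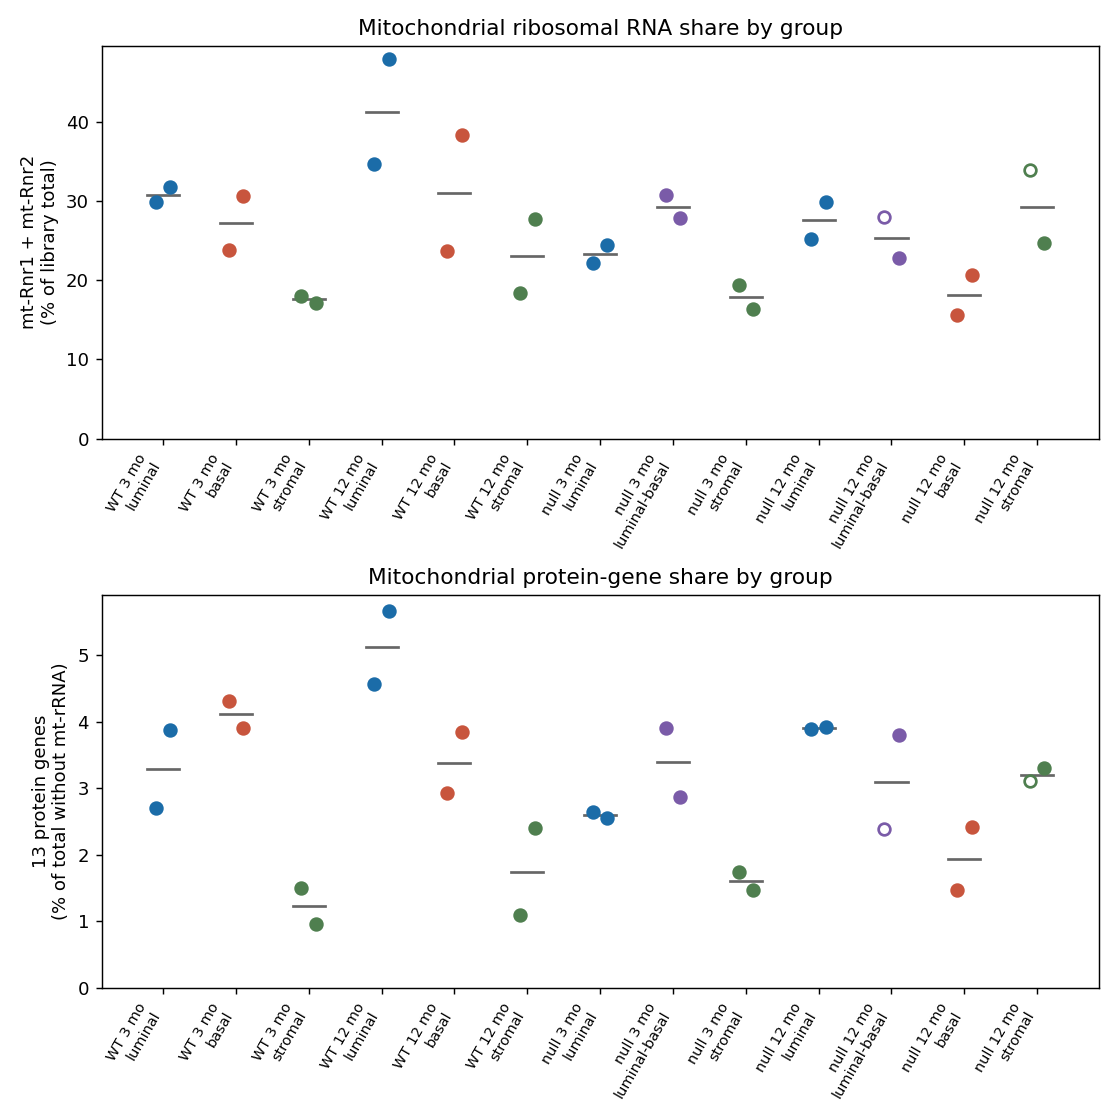
Share of mitochondrial ribosomal RNA in the library total (top, percent) and of the 13 protein genes in the total without those RNAs (bottom, percent) by group, 1 point per library, bars the mean of 2, open points the 2 doubted A5 libraries. Wild-type stroma lies below wild-type luminal cells in both panels, from 17.2% to 27.8% against 29.8% to 48% at the top.

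The 13 protein genes were taken as a share of the total without the mitochondrial ribosomal RNAs, so that a change in the RNAs would not move it. The share ran from 0.954% (F81 stroma) to 5.66% (A2 luminal). Wild-type luminal libraries held 2.7% (F79), 3.87% (F81), 4.57% (A1) and 5.66% (A2), and their stromal libraries 1.49%, 0.954%, 1.09% and 2.4% in the same order. The groups did not overlap, and stroma was the lower in each pool. Wild-type basal libraries held 4.32% (F79), 3.9% (F81), 2.92% (A1) and 3.84% (A2). They were above luminal cells of the same pool in F79, almost level with them in F81 and below them at 12 months. As percent of nuclear protein-coding counts the order in F81 was reversed, 4.46% in basal against 4.54% in luminal cells.

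Null luminal libraries held 2.64% (F82), 2.56% (F84), 3.89% (A5) and 3.93% (A6), and null stroma 1.74% (F82), 1.48% (F84), 3.1% (A5, against its label) and 3.3% (A6). Null stroma was the lower in all 4 pools too, by less. Null luminal-basal libraries held 3.91% (F82), 2.87% (F84), 2.39% (A5, against its label) and 3.79% (A6), on both sides of the luminal values. Null 12-month basal libraries, at 1.47% (A5) and 2.42% (A6), were below every wild-type basal library.

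Stroma was below luminal cells in 8 of 8 pools, by 1.78 percentage points (1.94% ± 0.891 against 3.73% ± 1.08, SD, n = 8 each; two-sided exact permutation p = 0.00781, the smallest possible). The Benjamini-Hochberg adjusted permutation p over the 24 tests was 0.188. Without the doubted library the difference was -1.92 points in 7 of 7 pools (exact permutation p = 0.0156). Ignoring the pairing, as a check of the pool block, gave the same -1.78 points with an adjusted exact permutation p of 0.0354. That adjustment covered the comparisons of fractions alone, fewer than the 24 tests, so it cannot be set against 0.188. Basal libraries differed from luminal ones by -0.958 points, lower in 4 of 6 pools (exact permutation p = 0.219). Luminal-basal libraries differed by -0.0111 points (exact permutation p = 1, where 4 pools cannot give less than 0.125), and by 0.483 points without the doubted library.

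Gene by gene, wild-type stroma was compared with the mean of luminal and basal cells by edgeR on library sizes scaled by TMM. At 3 months 9 of 14 members fell, where 2.73% of all genes tested fell (434 of 15917) and 9.29% changed in either direction. The 12 protein genes had a median log2 fold change of -1.47, with all 12 below 0, and all genes tested one of -0.11. At 12 months 5 of 14 fell, against 2.51% of all genes lower and 8.83% in either direction, with medians of -1.09 and -0.05.

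Genes for subunits of complex I, the complex that takes electrons from NADH, included the lowest adjusted p among the members. mt-Nd1 took 0.513% (F79) and 0.701% (F81) of the total without mitochondrial ribosomal RNA in 3-month luminal cells, 0.622% and 0.787% in basal cells, and 0.204% and 0.124% in stroma. The stromal values lay below all 4 epithelial ones. Its log2 fold change was -1.87 ± 0.34 (SE, n = 2 stromal against 4 epithelial libraries, adjusted p = 0.00233). mt-Nd2 (-1.80 ± 0.46), mt-Nd4 (-1.56 ± 0.40), mt-Nd5 (-1.39 ± 0.38) and the minus-strand gene mt-Nd6 (-1.35 ± 0.39) fell as well. At 12 months mt-Nd5 (-1.29 ± 0.38, adjusted p = 0.0383) and mt-Nd6 (-1.31 ± 0.39, adjusted p = 0.0388) fell, while mt-Nd1 was at -0.94 ± 0.32 (adjusted p = 0.0748).

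mt-Cytb, the cytochrome b of complex III, fell at both ages. Its share was 0.51% (F79) and 0.632% (F81) in 3-month luminal cells, 0.799% and 0.692% in basal cells, and 0.268% and 0.171% in stroma. At 12 months it was 0.952% (A1) and 1.13% (A2) in luminal cells, 0.593% and 0.759% in basal cells, and 0.229% and 0.467% in stroma. The stromal values were the lowest at each age. The log2 fold changes were -1.45 ± 0.35 (adjusted p = 0.0135) and -1.19 ± 0.34 (adjusted p = 0.0352).

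Of complex IV, which passes electrons to oxygen, mt-Co1 encodes the catalytic subunit. It took 0.498% (F79) and 0.579% (F81) in 3-month luminal cells, 0.779% and 0.635% in basal cells, and 0.314% and 0.265% in stroma. At 12 months it took 0.94% (A1) and 1.48% (A2) in luminal cells, 0.643% and 1.01% in basal cells, and 0.311% and 0.566% in stroma. Stroma and epithelium did not overlap at either age, and mt-Co1 fell by 0.99 ± 0.30 (adjusted p = 0.0419) and by 1.09 ± 0.30 (adjusted p = 0.0282) on the log2 scale. mt-Co2, one of the genes covered by a nuclear copy, was at -1.98 ± 0.47 (adjusted p = 0.0128) at 3 months and -0.81 ± 0.44 (adjusted p = 0.296) at 12, from 12 to 241 counts per library.

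For ATP synthase, mt-Atp8 fell by 1.52 ± 0.42 (adjusted p = 0.0302) at 3 months and by 1.74 ± 0.43 (adjusted p = 0.0164) at 12 months. Its share in 12-month stroma was 0.0703% (A1) and 0.195% (A2), against 0.576% and 0.605% in luminal and 0.328% and 0.411% in basal cells. Both stromal values were below all 4 epithelial ones. mt-Atp6, which is covered by a copy, was at -1.48 ± 0.50 (adjusted p = 0.0681) and -1.09 ± 0.48 (adjusted p = 0.185). The other covered genes tested, mt-Co3 and mt-Nd4l, did not pass at either age, at -0.82 to -1.45.

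The ribosomal RNAs were below 0 in the same fits without passing the test. mt-Rnr1 was at -0.86 ± 0.29 (adjusted p = 0.072) at 3 months and -0.82 ± 0.29 (adjusted p = 0.0882) at 12, and mt-Rnr2 at -0.82 ± 0.33 at both ages (adjusted p = 0.129 and 0.131). Their difference from the protein genes was not tested gene by gene. As a library measure, the log2 ratio of ribosomal RNA to protein-gene counts was 0.349 higher in stroma than in luminal cells over 8 pools (exact permutation p = 0.109).

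**Figure D3:**
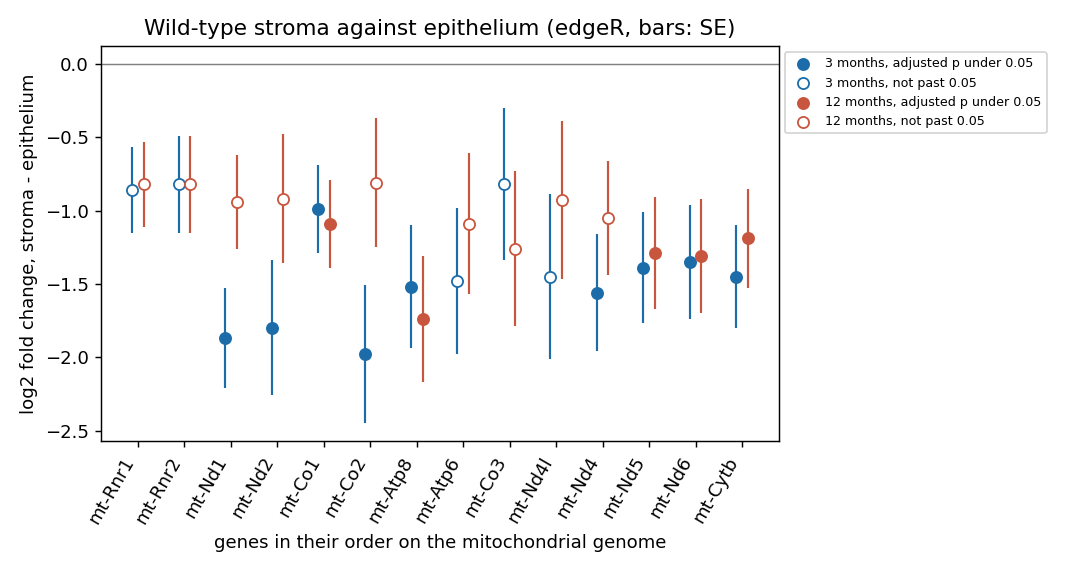
Log2 fold change of the 14 tested members between wild-type stroma and the mean of luminal and basal cells at 3 and 12 months, in genome order, bars the SE, filled points past an adjusted p of 0.05 by edgeR. All 28 points lie below 0, and 9 at 3 months and 5 at 12 months are filled.

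These calls leaned on single libraries. Leaving out 1 of the 6 libraries of the comparison at a time gave 0 to 6 called members at 3 months and 0 to 7 at 12, with all called members still below 0. No member was called without F81 stroma at 3 months or without A1 stroma at 12 months. The calls of mt-Nd1 and mt-Cytb at 3 months and mt-Atp8 at 12 months held in more of these fits than the others did. Their log2 fold changes ran from -2.40 to -1.36, -1.95 to -0.98 and -2.62 to -1.20. Among the calls lost more often, mt-Co1 ran from -1.23 to -0.67 at 3 months and from -1.56 to -0.75 at 12. At 12 months mt-Nd5 ran from -2.08 to -0.80, mt-Nd6 from -2.20 to -0.78 and mt-Cytb from -1.76 to -0.79.

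Nuclear genes of the same complexes were set beside these falls. At 3 months none of the 36 complex I, 4 complex II, 9 complex III, 12 complex IV and 17 ATP synthase subunits encoded in the nucleus passed the test. Of all genes tested, 2.73% were lower and 6.57% higher. The list medians were -0.36, -0.23, -0.46, -0.41 and -0.47 beside -0.11 for all genes. At 12 months 1 of these 78 genes fell, Ndufa4 of complex IV (-1.49 ± 0.40, adjusted p = 0.0248), where 2.51% of all genes were lower and 6.32% higher. The list medians were then -0.37, -0.26, -0.44, -0.68 and -0.56 beside -0.05. Atp5b, the catalytic subunit of ATP synthase, was at -0.73 ± 0.29 (adjusted p = 0.124) and -0.76 ± 0.29 (adjusted p = 0.108). Of 16 mitochondrial DNA transcription and replication factors, 25 RNA processing factors and 74 mitochondrial ribosomal proteins tested, 0 passed at either age, beside the same shares of all genes. Their medians ran from -0.55 to -0.15. A difference between these nuclear lists and the mitochondrial genes was not tested.

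Lists outside the organelle are read against the 2.73% of all genes lower and 6.57% higher at 3 months, and 2.51% and 6.32% at 12. Of 15 glycolysis enzymes, 3 fell in stroma at 3 months (Aldoc -2.17 ± 0.45, Pfkl -1.58 ± 0.44 and Gapdh -0.90 ± 0.27), and at 12 months 3 fell and Hk2, the hexokinase that starts glycolysis, rose by 2.39 ± 0.66. Of 78 cytosolic ribosomal proteins tested 3 fell at 3 months, a share near that of all genes, and 0 at 12. Of 14 stress and early-response genes (known to rise when tissue is taken apart), Dusp1 alone was called and rose in 3-month stroma (2.04 ± 0.50, adjusted p = 0.017), again near the share of all genes. Their summed level was 27370 and 24900 CPM of nuclear counts in 3-month stroma (F79, F81) against 9427 and 9732 in luminal and 18840 and 13110 in basal cells. At 12 months it was 59300 and 47180 in stroma (A1, A2), 28740 and 29930 in luminal and 27840 and 26490 in basal cells. Against luminal cells alone at 3 months, 844 of 15917 genes rose in wild-type stroma. Stress genes called there with the lowest p were Dusp1 (2.77 ± 0.64), Nr4a1 (1.62 ± 0.39), Junb (1.67 ± 0.48) and Zfp36 (2.16 ± 0.63), and all rose. In null 3-month stroma against luminal cells Dusp1, Nr4a1 and Btg2 were called and rose, where 1187 of 15917 genes did. In 3-month basal against luminal cells 2 of the 14 rose (Ier3 and Nr4a1), where 624 of 15917 genes did. The part of the stress genes in the mitochondrial result was not tested.

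The null stroma was compared with luminal cells, as no null 3-month library here is labelled basal. 0 of 14 members passed at 3 months, where 13.1% of all genes did, and 0 of 14 at 12 months, where 2.98% did. The 12 protein genes had medians of -0.31 (9 below 0) and -0.29 (10 below 0), beside -0.09 and 0.02 for all genes. With other scalings 8 or 9 of these 12 were below 0. Without the doubted A5 library the 12-month median was -0.10, again with 0 members called. mt-Nd1 was at -0.04 ± 0.36 and mt-Cytb at -0.43 ± 0.37 at 3 months. The raw shares of the protein genes at 3 months, 2.64% and 2.56% in luminal against 1.74% and 1.48% in stroma, did not overlap. The TMM factor of F82 luminal was 1.33, the highest of all libraries, and those of the 2 null 3-month stromal libraries were 0.929 and 0.933.

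The same contrast, stroma against luminal cells alone, was then fitted in wild-type pools, a comparison chosen after the values were seen. At 3 months 3 of 14 members fell (mt-Nd1, mt-Co2 and mt-Nd6), against 3.67% of all genes lower and 8.97% in either direction, and the median of the protein genes was -1.23. At 12 months 7 fell (mt-Rnr1, mt-Nd1, mt-Co1, mt-Atp8, mt-Nd5, mt-Nd6 and mt-Cytb), against 3.55% lower and 9.73% in either direction, and the median was -1.38. mt-Rnr1 was at -1.16 ± 0.33 (adjusted p = 0.0299), the 1 ribosomal RNA call among all comparisons in this fit. Without the doubted A5 libraries, which enter the shared estimate of spread, 6 and 10 members fell. Leaving out 1 of the 4 libraries compared gave 0 to 2 called members at 3 months and 0 to 8 at 12. None was called without F81 stroma at 3 months or without A1 stroma at 12, and 1 was called at 12 months without A1 or without A2 luminal cells. The call of mt-Rnr1 held in 1 of these 4 fits.

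The difference between genotypes in that contrast was tested in the same fit and did not pass for any member. Null minus wild type, the median over the 12 protein genes was 0.92 at 3 months and 1.16 at 12 months, with all 12 above 0 at both ages, beside 0.04 and 0.02 for all genes. Without the doubted library the 12-month median was 1.37. 0 of 14 members and 0% of all genes were called at either age by edgeR. At an unadjusted p under 0.05 there were 5 and 6 members and 186 and 785 genes, and DESeq2 called 1 and 9 genes. The largest difference at 12 months was that of mt-Atp8, 1.76 ± 0.65 (adjusted p = 0.926).

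Library shares, taken from the same counts, gave the same direction. Stromal minus luminal, the protein-gene share differed by -1.2 (F79), -2.92 (F81), -3.48 (A1) and -3.26 (A2) points in wild-type pools, and by -0.896 (F82), -1.08 (F84), -0.782 (A5, against its label) and -0.63 (A6) in null pools. The ribosomal RNA share differed by -11.8, -14.6, -16.2 and -20.2 points in wild-type pools and by -2.76, -8, 8.63 and -5.27 in null pools, in the same order. The pools of the 2 genotypes did not overlap in either measure on these scales. With ribosomal RNA kept in the total, the protein-gene values did overlap, from -2.1 to -0.668 points in wild-type and from -0.852 to -0.267 in null pools, and the difference between genotypes was 0.841 points (exact permutation p = 0.0857). With protein genes taken as a share of the total without it, the difference between genotypes was 1.87 points for them and 13.9 points for the ribosomal RNA share. Each had an exact permutation p of 0.0286, the smallest that 4 against 4 pools allow. The adjusted permutation p was 0.169 each, over the 24 tests and these 3, which were added after the values were seen. Without pool A5 the differences were 1.85 points (exact permutation p = 0.0571) and 10.4 points (exact permutation p = 0.0286). For the log2 ratio of the 2 kinds of RNA the difference was -0.0862 (exact permutation p = 0.886).

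**Figure D4:**
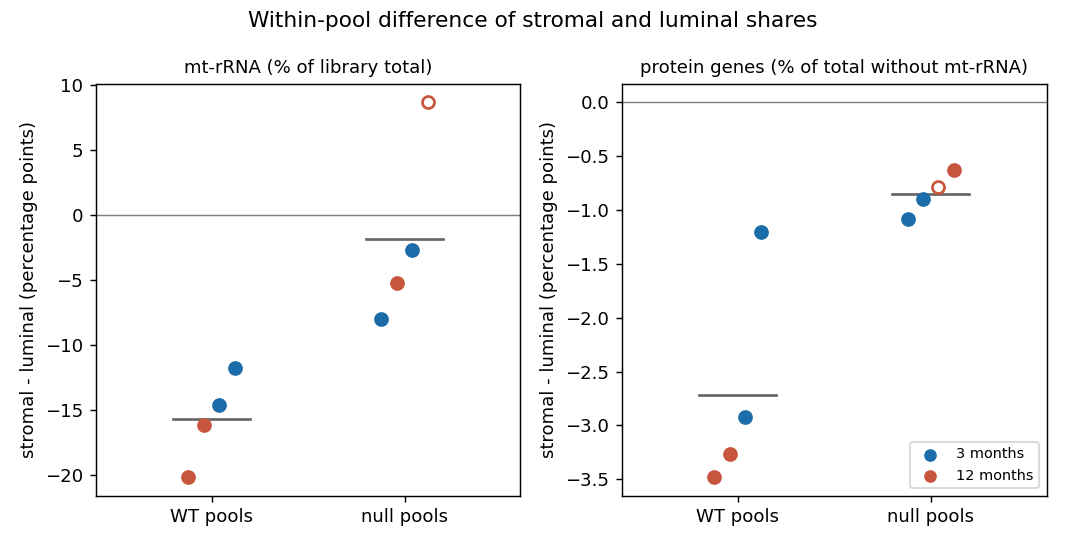
Difference between the stromal and the luminal library of each pool, in percentage points, for the ribosomal RNA share (left) and the protein-gene share (right), 1 point per pool, bars the mean of 4 pools, open points pool A5, whose stromal library went against its label. Wild-type pools lie between -20.2 and -11.8 on the left and between -3.48 and -1.2 on the right, below all null pools.

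Between basal and luminal wild-type cells no member passed the edgeR test. 0 of 14 were called at 3 months, where 6.28% of all genes were, and 0 of 14 at 12 months, where 2.89% were. The median of the 12 protein genes was 0.45 (10 above 0) at 3 months and -0.55 (all 12 below 0) at 12, beside 0.00 and 0.02 for all genes, and the lowest adjusted p of a protein gene was 0.343. Markers of other cell types moved with the 12-month comparison, where 5 of 9 endothelial, 1 of 9 fibroblast and 1 of 3 adipocyte markers tested rose in basal cells, against 0 of each at 3 months. Endothelial markers summed to 685.7 and 983.8 CPM in 12-month basal (A1, A2) and 102.5 and 109.5 in luminal cells, and at 3 months to 342.5 and 232.5 in basal (F79, F81) and 210.8 and 244.6 in luminal cells. Their part in the protein-gene values was not tested. The largest values were 0.68 ± 0.43 for mt-Nd4 at 3 months and -0.91 ± 0.42 for mt-Nd6 at 12 months. In null 3-month glands, luminal-basal against luminal cells gave 0 of 14 members, where 3.11% of all genes were called. All 12 protein genes were above 0 there, with a median of 0.50, and mt-Nd2 was the highest at 0.93 ± 0.49 (adjusted p = 0.388).

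Age was tested within wild-type fractions. In luminal cells 0 of 14 members were called, against 0.0188% of all genes (3). The unadjusted p was under 0.05 for 4 of 14 members and for 903 of 15917 genes. mt-Co1 was at 1.27 ± 0.33 (adjusted p = 0.214), mt-Cytb at 0.99 ± 0.38 (adjusted p = 0.642) and mt-Rnr1 at 0.90 ± 0.33 (adjusted p = 0.608), while mt-Nd1 was at -0.09 ± 0.36. DESeq2 called mt-Co1. In basal cells and in stroma 0 of 14 members and 0% of all genes were called, with protein-gene medians of -0.45 and 0.48. The unadjusted p by edgeR was under 0.05 for 1 and 0 members and for 1067 and 729 genes. DESeq2, a separate fit, called 89 and 49 genes.

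As library shares, the luminal protein-gene share was 2.94% ± 0.623 at 3 months and 4.51% ± 0.829 at 12 (SD, n = 4 each, both genotypes). The 3-month values ran from 2.56% to 3.87% and the 12-month ones from 3.89% to 5.66%, without overlap (exact permutation p = 0.0286, the smallest possible, adjusted 0.229). As percent of nuclear protein-coding counts the ages did overlap, at 4.54% in F81 (3 months) and 4.52% in A5 (12 months). As percent of the library total they did not, with 2.64% the highest at 3 months (F81) and 2.75% the lowest at 12 (A6). Within each genotype both 12-month values exceeded both 3-month values, which 2 against 2 libraries cannot test. Stromal shares were 1.42% ± 0.331 and 2.47% ± 1 (n = 4 each; exact permutation p = 0.114). The luminal ribosomal RNA share was 27.1% ± 4.49 at 3 months and 34.4% ± 9.8 at 12 (n = 4 each; exact permutation p = 0.2), and the stromal one 17.8% ± 1.31 and 26.2% ± 6.44 (exact permutation p = 0.0571). Without the doubted library the stromal differences were 0.846 points of protein genes and 5.86 points of ribosomal RNA. In wild-type luminal cells the stress genes summed to 9427 and 9732 CPM at 3 months and 28740 and 29930 at 12, and milk protein genes reached 50540 CPM in A1 luminal cells. Their part in the shares was not tested.

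Null and wild-type cells of the same fraction were compared last. In luminal cells 0 of 14 members and 0% of all genes were called at 3 and at 12 months, and in 3-month stroma the same, 0 of 14 and 0%. Counts at an unadjusted p under 0.05 were 2, 2 and 0 members and 355, 482 and 468 genes, and DESeq2 called 1, 24 and 4 genes. Protein-gene medians were -0.40 and -0.46 in luminal cells and 0.58 in stroma. The largest were mt-Nd6 (-1.21 ± 0.42) and mt-Nd1 (-1.04 ± 0.36) in 3-month luminal cells and mt-Rnr2 (-1.12 ± 0.37) in 12-month luminal cells, all at an adjusted p of 1. As a share, luminal ribosomal RNA was 25.4% ± 3.25 in null and 36% ± 8.18 in wild-type pools (SD, n = 4 each; exact permutation p = 0.0571).

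The 12-month basal libraries of null mice gave 0 of 14 members against wild-type basal cells, where 5.43% of all genes were called. All 12 protein genes were below 0, with a median of -0.64 beside -0.09 for all genes. mt-Co3, a covered gene with 7 to 145 counts per library, was the lowest at -1.87 ± 0.62 (adjusted p = 0.0773), and DESeq2 called it. These libraries held 4587 and 3656 CPM of adipocyte, 3272 and 2948 CPM of endothelial and 6592 and 6541 CPM of pericyte markers (A5 and A6), against 474.3 and 754.7, 685.7 and 983.8, and 869.8 and 812 CPM in A1 and A2 basal cells. The part of those cells in the mitochondrial values was not tested.

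Within the protein-gene counts, mt-Co1 held 15% to 28.6% of them, mt-Cytb 16.3% to 25.1%, mt-Nd5 11.1% to 17.9% and mt-Nd6 1.93% to 4.33%. A difference between groups in their make-up was noticed after the values were seen. The ratio of mt-Nd1 to mt-Co1 counts was 1.03 (F79) and 1.21 (F81) in wild-type 3-month luminal cells and 0.798 (F79) and 1.24 (F81) in wild-type 3-month basal cells. In the other 22 libraries it was 0.391 to 0.65, including 0.65 and 0.468 in stroma of the same 2 pools. Null 3-month luminal cells, at 0.547 (F82) and 0.488 (F84), and 12-month wild-type luminal cells, at 0.499 (A1) and 0.391 (A2), lay below the wild-type 3-month epithelium. Being chosen for its pattern, the ratio was not tested. Both genes lie on the plus strand, and part of mt-Co1 but none of mt-Nd1 has a near-identical copy among the annotated transcripts.

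**Figure D5:**
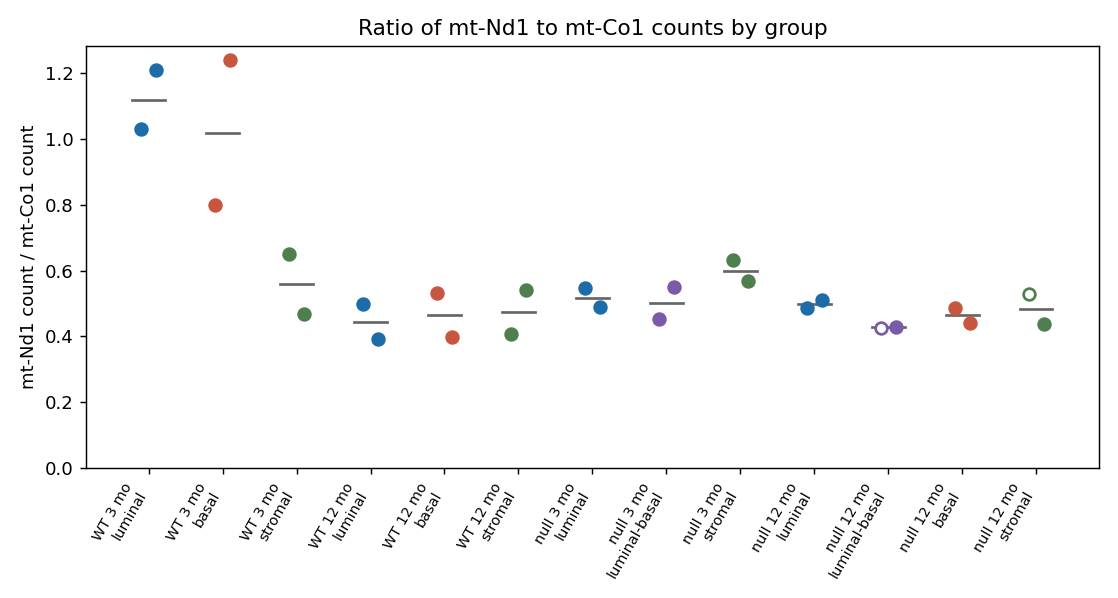
Ratio of mt-Nd1 to mt-Co1 counts (no unit) by group, 1 point per library, bars the mean of 2, open points the 2 doubted A5 libraries. The 4 wild-type 3-month luminal and basal libraries lie between 0.798 and 1.24 and the other 22 between 0.391 and 0.65.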

How the data were processed

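Per the labels' protocols, cDNA was amplified from 5 ng of RNA with NuGEN Ovation V2, and the submitters' processing notes name TopHat2 2.0.13, HTSeq and the build GRCm38. The authors deposited raw counts per gene, for which the strand option and the treatment of reads with several matches are not stated in the labels. Members and gene lists were chosen with earlier results of these data known. Library measures (ribosomal RNA as percent of the library total, protein genes as percent of the total without mt-rRNA, and the log2 ratio of both) were tested over pools by exact permutation (sign flips within pools, relabelling between pools), with Benjamini-Hochberg adjustment over 24 tests. Genes were tested with edgeR 4.0.16 (robust quasi-likelihood, filterByExpr with minimum count 10 and total 15, TMM, 1 coefficient per group), adjusted over all 15917 genes kept, and called at an adjusted p under 0.05. The 14 planned comparisons and 4 added after the values were seen are contrasts of 1 fit. The named members are all those with counts. Named nuclear genes are, per list, up to 4 called (by p), and where a list had none, its 2 of highest CPM. CPM of markers and lists are counts per 1e+06 nuclear counts, summed over the list. Nuclear copies were found by BLAST+ 2.17.0 of member transcripts against GENCODE vM21 transcripts (e-value 1e-5, at least 85% identity). Of 45706 gene rows 45143 matched the annotation. Fractions of 1 pool come from the same mice and form pairs. As a check, their deviations from the means of their groups had correlations from -0.514 to 0.3, 8 of 15 above 0.1. Replicates are pools of 3 mice, and p-values reflect how far such pools differ. Alternatives were RLE scaling, no low-count filter, library sizes without mitochondrial rows, DESeq2 1.42.0, only the libraries compared, the pool as a replicate block, other denominators, a log2 scale, no doubted A5 library, and each library or pool left out. Scripts ran on simulated data with known changes. R 4.3.3, Python 3.11.15 and matplotlib 3.10.9 were used.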

Additional observations from a re-analysis of the deposited data

How the results depend on the processing

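Called members kept their direction under every alternative run. The count of called members in wild-type stroma against epithelium was 8 to 11 at 3 months under the alternatives that leave out no single library and 4 to 10 at 12 months, the 10 without the low-count filter, and 0 to 6 and 0 to 7 when 1 library was left out. Adding the pool as a replicate block gave 9 and 5, as without it, and left the other planned member counts it could be run on at 0. Without the doubted A5 libraries, which share the spread estimate, the count was 10 and 7. In wild-type stroma against luminal cells alone the counts were 2 to 9 at 3 months and 5 to 10 at 12 under the alternatives that leave out no single library, and 0 to 2 and 0 to 8 when 1 was left out. Age and genotype lie between pools, so no paired fit exists for them. Members were called in comparisons that otherwise had 0 in these cases: without the low-count filter 1 in wild-type basal against luminal cells at 12 months, 3 in wild-type luminal cells by age, 1 in null against wild-type luminal cells at 12 months, 2 in basal cells at 12 months, 2 in null luminal-basal against luminal cells, and 3 in the 12-month genotype difference of stroma against luminal cells. With only the libraries compared it was 1 in the first and 1 in the second of these, and with DESeq2 1 in luminal cells by age and 1 in null against wild-type basal cells. Why the filter and the set of libraries change the calls was not tested. Counts over all genes moved more: 999 called in wild-type basal against luminal cells at 3 months became 818 under the replicate block and 3489 from only the libraries compared, 460 at 12 months became 362 and 1993, 1479 in stroma against epithelium at 3 months became 882 and 4194, 1405 at 12 months became 896 and 3180, 2088 in null stroma at 3 months became 1731 and 3075, 474 at 12 months became 360 and 0, 495 in null luminal-basal cells became 393 and, without the filter, 1561, 864 in null basal cells became 355 with only the libraries compared and 1975 without the filter, and 3 in luminal cells by age became 550 with only the libraries compared. Among library measures, without the doubted A5 libraries the null minus wild-type difference in stromal ribosomal RNA was -0.178 points in place of 3.25, that of luminal-basal minus luminal cells 0.483 points of protein genes in place of -0.0111, and the log2 ratio for that pair -0.108 in place of 0.145. With no replicate block, stroma minus luminal cells kept -1.78 points of protein genes and passed the threshold. Leaving out 1 pool at a time, differences that changed sign ranged from -6.21 to 0.132 (ribosomal RNA, stroma minus basal), -0.316 to 4.91 (ribosomal RNA, luminal-basal minus luminal), -0.178 to 5.73 (ribosomal RNA, stroma, null minus wild type), -0.438 to 0.483 (protein genes, luminal-basal minus luminal), and, for the log2 ratio, -0.273 to 0.0593 (basal minus luminal), -0.108 to 0.355 (luminal-basal minus luminal), -0.2997 to 0.00204 (luminal cells by age), -0.176 to 0.178 (stroma by age) and -0.293 to 0.0676 (stroma minus luminal, null minus wild type). The other library measures kept their sign in each case.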
